A study of Mus musculus with 3 samples.

Results

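The cells described here were 224 of 22168 quality-filtered cells from 3 mouse embryos, all of which carried transcripts of Hand1 and of most of a set of smooth-muscle and BMP genes. They were chosen by their UMI counts (a UMI marks 1 captured RNA molecule). A cell was taken if it held at least 1 UMI of Hand1, a UMI of at least 3 of the 4 genes Bmp4, Ahnak, Acta2 and Tagln, no UMI of Tbx4, Tnnt2, Myl7, Cdx4 or Sox2, and at most 1 UMI of Kdr. The working name for such cells is extraembryonic mesenchyme. By genes that the choice did not use, that name fitted only a part of them, so they are called Hand1-gated cells here.

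Single-cell RNA-seq (10x Genomics, 3′ version 3 chemistry) was made from 3 male wild-type embryos of a C57BL/6 x 129 SvEv background at embryonic day 8, 1 library per embryo. The embryos were picked at 0 to 1 somites, and their stage label allows up to 2. No other genotype or treatment entered the libraries. The protocol removed the extraembryonic tissue before dissociation, so cells of the amnion, chorion or yolk sac could only come from what stayed attached to the embryo, and how much stayed was not measured.

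After filtering, replicates 1, 2 and 3 held 6129, 8116 and 7923 cells with a median of 26705, 14461 and 16242 UMIs per cell. Between 14 and 20 barcodes were shared by each pair of libraries. Replicate 1 was thus the deepest library and had the fewest Hand1-gated cells, 40, against 75 in replicate 2 and 109 in replicate 3. These were 0.653%, 0.924% and 1.38% of the cells, with exact (Clopper-Pearson) 95% intervals of 0.467 to 0.888, 0.728 to 1.16 and 1.13 to 1.66, which cover counting error only. The mean share was 0.984% ± 0.365 (SD, n = 3). The share rested on the gate, since asking for all 4 of the 4 genes gave 0.549% and asking for 2 of them gave 1.86%. Together the 224 cells held 4126052 UMIs, with a median of 14982 UMIs and 4032 genes per cell.

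Extraembryonic mesoderm leaves the primitive streak early in gastrulation and lines the amnion, chorion and visceral yolk sac and forms the allantois. Its cells secrete BMP4, and the transcription factor HAND1 is needed in it for yolk sac and heart development. In the amnion this mesoderm lies as a thin sheet on a sheet of ectoderm, and parts of the tissue carry smooth-muscle proteins such as alpha smooth-muscle actin (Acta2) and transgelin (Tagln), which bind or form contractile filaments. Many such genes are controlled by serum response factor (SRF), which binds a short DNA element named the CArG box.

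Since the genes below were used by the gate, their levels are a description and carry no test. Levels are given in CPM, the UMIs of a gene divided by all UMIs summed over the cells of that class and embryo and scaled to the usual fixed total. Hand1 (chr11:57828705-57832818, minus strand, GRCm38) was at 435, 543 and 506 CPM in the gated cells of replicates 1, 2 and 3, and at 97.1 CPM on average in all other cells. Its mean was as high in allantois cells, 527 CPM. Bmp4 (chr14:46383520-46390669, minus strand), the secreted ligand, was at 152, 149 and 174 CPM, and allantois cells had the same mean, 158 CPM. As the gate used both genes, their higher levels than in all other cells follow from the choice. Their means were near those of the allantois cells.

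The other 3 gate genes were far above the allantois level as well. Ahnak (chr19:8989284-9076914, plus strand), a very large scaffold protein under the cell membrane, was at 406, 395 and 323 CPM against 75.6 in allantois cells, 168 in cardiomyocytes and 40.5 in all other cells. Tagln (chr9:45929619-45936058, minus strand) was at 191, 356 and 244 CPM against 14.3 in allantois cells and 141 in cardiomyocytes. Acta2 (chr19:34241090-34255590, minus strand) was at 154, 402 and 272 CPM, close to the 269 CPM of cardiomyocytes, and was the least even of the 5 between embryos. Replicate 1 was the lowest and replicate 2 the highest for both, and the same order of Acta2 was seen in cardiomyocytes (142, 461 and 204 CPM in replicates 1, 2 and 3) and in neural-like cells (13.4, 46.8 and 28.2 CPM). Of the 224 cells, 31 lacked a UMI of Bmp4, 4 of Ahnak, 32 of Acta2 and 33 of Tagln, and 124 had all 4. Kdr, the receptor that marks endothelial precursors, was at 4.04 CPM against 32.7 in all other cells, and the 5 excluded genes were at 0 by construction.

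**Figure D1:**
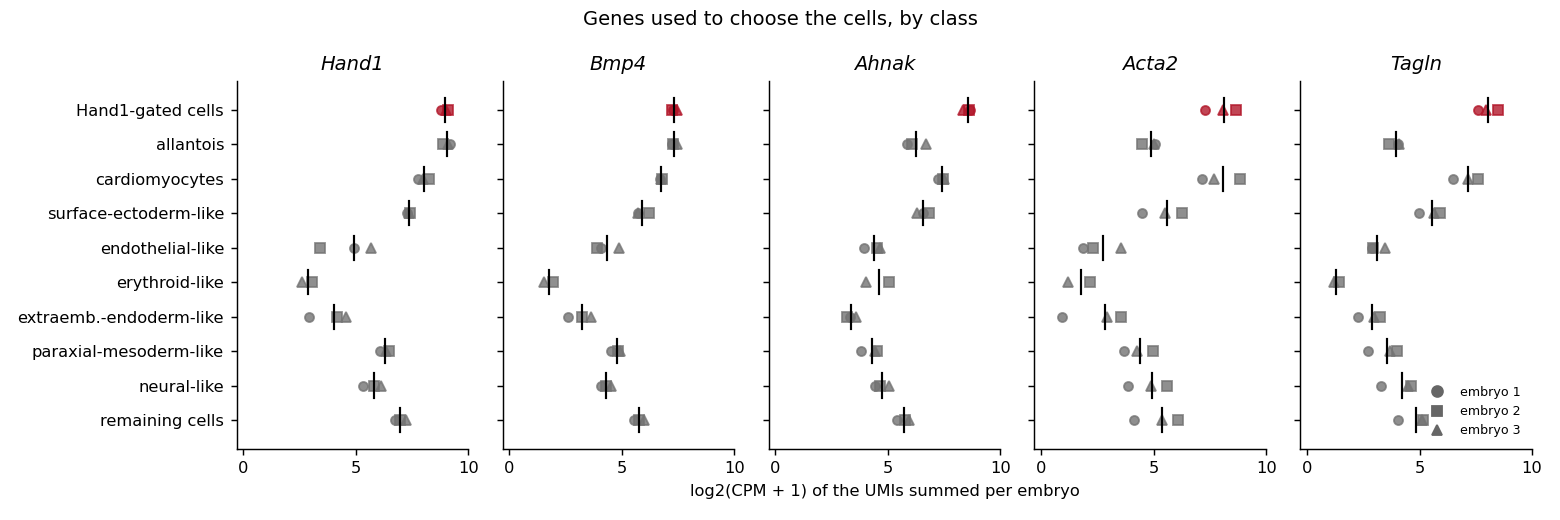
Levels of the 5 gate genes, as log2(CPM + 1) of the UMIs summed per embryo, with 1 point per embryo and class of cells and a line at the mean CPM. The Hand1-gated cells share their Hand1 and Bmp4 levels with the allantois and their Acta2 and Tagln levels are nearest to those of the cardiomyocytes.

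Most cells with a Hand1 UMI did not pass the gate. Of 7372 cells with a Hand1 UMI, 2065 had at least 3 of the 4 genes, and the exclusions removed the greater part of these. Myl7 was over its limit in 1239 of them, Tnnt2 in 1025, Sox2 in 659, Cdx4 in 607, Tbx4 in 359 and Kdr in 257, and a cell could fail on several. Just inside the limits, 100 members had exactly 3 of the 4 genes and 10 had a single Hand1 UMI. Just outside were 197 cells that met every other condition with 2 of the 4 genes. Bmp4 was found in 74.6% of these and Ahnak in 84.3%, but Acta2 in 17.3% and Tagln in 23.9%, so the step from 2 to 3 genes was mostly a step in smooth-muscle genes. Foxf1 was found in 56.3% of the cells just outside and Wnt6 in 32.5%.

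By the levels of genes outside the gate, the gated cells were not all alike. The parts of the division below are called kinds, and whether they are separate cell types was not tested. A division by Epcam, an adhesion protein of epithelia (chr17:87635979-87651129, plus strand), was made after its values were seen, so the levels that follow are given without a test. At least 2 Epcam UMIs were present in 15 of 40, 23 of 75 and 29 of 109 gated cells, 67 in all (29.9%), and the other 157 had 1 or none. The 67 were deeper, with a median of 21369 UMIs against 13054, and depth by itself raises the number of cells with 2 UMIs of a gene. Their part among the top 6% of doublet scores was 4 cells, against 6 of the 157. The doublet caller did not work in these libraries, so these counts say nothing on doublets. The part of doublets in the division was not tested.

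The Epcam-positive cells carried genes of epithelium and surface ectoderm. Wnt6 (chr1:74771892-74785322, plus strand), a secreted signal of surface ectoderm, was at 308, 367 and 204 CPM in them and at 21.7, 27.9 and 11.9 CPM in the other gated cells, with no overlap between embryos. A Wnt6 UMI was found in 80.6% of the Epcam-positive and 15.9% of the other cells. Wnt4 was at 166 against 21.2 CPM on average, Cdh1 (E-cadherin) at 42.8 against 4.9 CPM and the ectodermal transcription factor Tfap2a at 36.3 against 3.3 CPM. Lrp2, an endocytic receptor of epithelia, was at 377 against 45.5 CPM and the glucose transporter Slc2a3 at 2338 against 390 CPM. Trp63 and Krt5, markers of the later surface ectoderm, had no UMI in any of the 224 cells. All 13 markers of the extraembryonic endoderm had at least 10 CPM in either kind, a filter that favours the kind where a gene is high. On average 10 of these were at least 2-fold higher in the Epcam-positive cells and none in the Epcam-low cells, but the embryos differed. Ttr was at 9.49, 189 and 535 CPM in the Epcam-positive and at 1.67, 342 and 14.6 CPM in the Epcam-low cells of replicates 1, 2 and 3, so the Epcam-positive cells were far above in replicate 3 and below in replicate 2. In replicate 3, 3 of the gated cells also met a rule of at least 5 Ttr UMIs and 1 of Apoa1, all 3 Epcam-positive, and in replicate 2, 4 did, of which 1 was Epcam-positive. A rule of Wnt6 and Epcam was met by 58 gated cells, 54 of them Epcam-positive, which the shared use of Epcam makes likely, and a rule of the paraxial genes Tbx6 or Tcf15 by 16, of which 3 were Epcam-positive. Dnmt3b, the most abundant of the neural and epiblast markers, was higher in the Epcam-positive cells of every embryo (on average 199 against 93 CPM). Otx2 and Pou5f1, the others of that list under the same filter, were also at least 2-fold higher there on average. The part of these cell types in the division was not tested.

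The 157 Epcam-low cells carried mesodermal genes in their place. Foxf1 (chr8:121084386-121088144, plus strand), a transcription factor of extraembryonic and lateral mesoderm, was at 164, 137 and 158 CPM in these and at 22.3 CPM on average in the Epcam-positive cells. It was found in 84.1% of the former and 23.9% of the latter. Pitx1, a transcription factor of hindlimb and posterior lateral mesoderm, was at 155 against 16.5 CPM, Twist1 at 73.8 against 10.2 CPM and Col1a1, a chain of the fibrillar collagen I, at 51.5 against 19.2 CPM. Tdo2, which degrades tryptophan, was at 88.2 against 10.6 CPM. Of the Hox genes, Hoxc8 was at 50.1, 70.5 and 53.9 CPM in the Epcam-low and at 2.37, 14.1 and 13 CPM in the Epcam-positive cells.

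By the levels above, the name mesenchyme held for the gated cells only in part. The counts that follow are a description and decide nothing further. Genes entered with at least 10 CPM in either kind, which favours the kind where a gene is high, and the division itself used an epithelial gene. Of 18 mesenchymal genes, 11 were at least 2-fold higher in the Epcam-low cells and 1 (Pdpn) in the Epcam-positive cells. Of 13 epithelial genes, 8 were at least 2-fold higher in the Epcam-positive cells and none in the Epcam-low cells. Of 29 proliferation genes, 1 was at least 2-fold higher in each kind. The share of all genes that differ by 2-fold between the kinds was not counted. Whether these lists, or the others counted by kind, stand out from that share is therefore not known. The kinds were not wholly apart. Col1a1 in the Epcam-positive cells was still above the 5.20 CPM of all other cells, the mesenchymal Snai2 was higher in these (107 against 57.9 CPM), and the Epcam-low cells had the keratin Krt8 at 1292 CPM.

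Some of the gate itself was unequal between these kinds. Bmp4 was at 212 CPM in the Epcam-low and 81 CPM in the Epcam-positive cells, while Tagln was at 184 and 376 CPM in the same order. Ahnak was at 315 and 455 CPM on average, but replicate 3 went the other way, with 352 CPM in the Epcam-low and 278 CPM in the Epcam-positive cells. Hand1 (517 and 460 CPM) and Acta2 (291 and 252 CPM) were nearly alike. The ligands Bmp5, Bmp7 and Bmp2 were all at least 2-fold higher in the Epcam-low cells (26.8 against 7.2, 26.6 against 11.9 and 37.3 against 17.2 CPM). The BMP target genes Id1 (401 against 147 CPM) and Msx2 (119 against 39.2 CPM) were higher in the Epcam-positive cells, as were Id2 and Id4 by at least 2-fold.

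**Figure D2:**
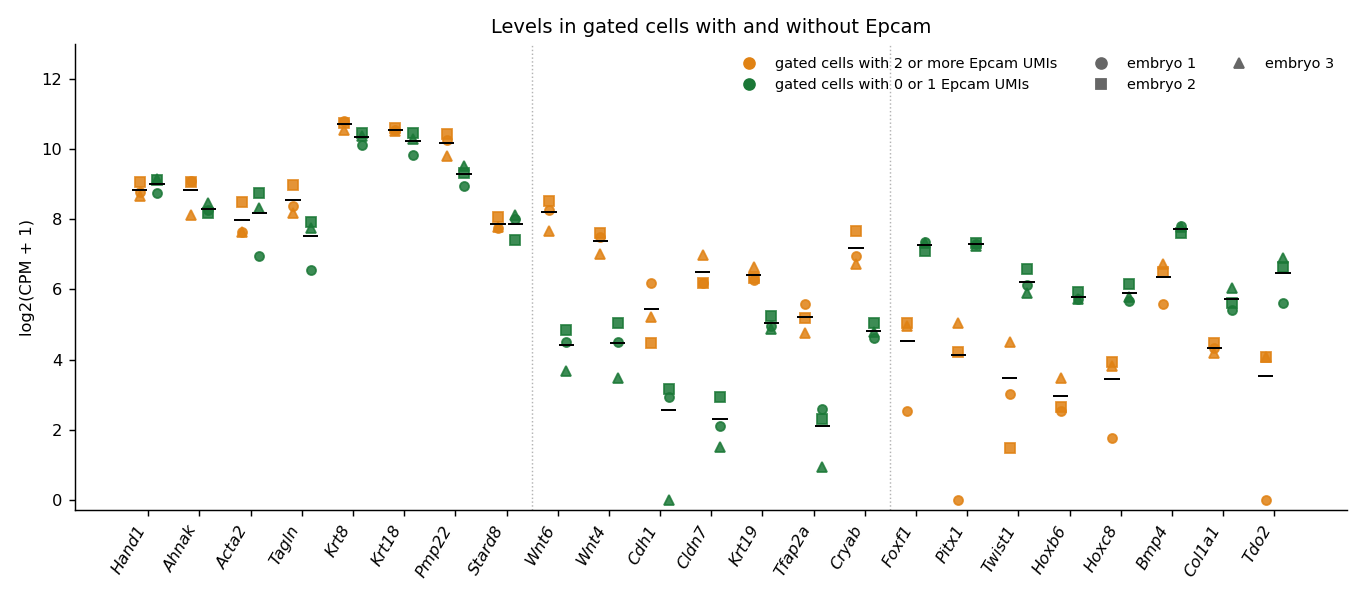
Levels, as log2(CPM + 1), in gated cells with at least 2 Epcam UMIs and with 0 or 1, with 1 point per embryo and a line at the mean CPM. Genes stand in order of being shared, higher with Epcam and higher without, parted by dotted lines. Wnt6, Wnt4 and Cdh1 are high in the Epcam-positive cells, Foxf1, Pitx1 and Col1a1 are high in the others, and Krt8, Pmp22 and Stard8 are high in both.

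Some genes were above the level of all other cells in both kinds. In the test against all other cells below, 1141 genes were higher in the pooled gated cells. Of these, 61 were not above all other cells in the Epcam-low cells and 63 were not in the Epcam-positive cells, and that these are few is largely set by the choice of genes on the pooled level. The keratins Krt8 and Krt18, which form the filaments of simple epithelia, were at 1676 and 1505 CPM in the Epcam-positive and 1292 and 1193 CPM in the Epcam-low cells, against 344 and 375 CPM in all other cells. Pmp22, a membrane protein of cell junctions, was at 1167 and 624 against 91.5 CPM. Stard8 was at 234 and 233 against 39.8 CPM. The metalloprotease Adamts9 was at 68.4 and 79.1 against 11 CPM.

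Against all other cells, the Hand1-gated cells showed a higher level of contractile genes, of some extracellular matrix genes and of imprinted genes, and a lower level of neural and paraxial mesoderm genes. The sums of the 3 embryos entered the quasi-likelihood test of edgeR with Benjamini-Hochberg adjustment, to which all adjusted p-values here belong. Of 15382 genes tested, 1141 were higher (7.42%) and 1075 lower (6.99%), gate genes left out. With the embryo as a block the numbers were 1614 and 2230, and with a single embryo left out they came to 1214 in all without replicate 2 and 697 without replicate 3. As the classes were cut by UMI counts in these same cells, the test tells which genes went with the gate. Genes of the excluded lineages had to be lower, and genes that go with Acta2, Tagln and Ahnak were made likely to be higher. The median of all genes was at a log2 fold change of −0.13.

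The gene with the highest log2 fold change among the abundant ones was Anxa2, a calcium-dependent membrane and actin binding protein (chr9:69453620-69491795, plus strand). It was at 212, 331 and 215 CPM in the gated cells and at 18.3 CPM on average in all other cells, a log2 fold change of 3.74 ± 0.19 (SE, edgeR adjusted p = 9.19e-07). Every gated sum was far above every other sum. Wnt4 (chr4:137277489-137299726, plus strand) was at 86.2, 102 and 55.4 CPM against 6.36 (3.60 ± 0.20, edgeR adjusted p = 1.54e-06) and Wnt6 at 140, 174 and 86.2 CPM against 13.4 (3.25 ± 0.21, edgeR adjusted p = 3.49e-06). As shown above, both were carried mainly by the Epcam-positive cells, as was the small heat-shock protein Cryab (3.49 higher in log2, 143 CPM in those and 27.3 CPM in the Epcam-low cells). Anxa2 was also higher in the Epcam-positive cells, at 462 against 104 CPM.

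Most of the other genes of the strongest changes were above the level of all other cells in both kinds. Pmp22 was at 851 against 91.5 CPM (log2 fold change 3.16) and Snai2, a repressor of epithelial genes, at 78.2 against 10.4 CPM (2.85). Snai2 reached 107 CPM in the Epcam-positive and 57.9 CPM in the Epcam-low cells, so this gene was not the mark of the mesenchymal kind alone. Adamts9 was higher by 2.69, the peptidase Mme by 2.61, Plac8 by 2.59 (158 against 25.7 CPM), the ganglioside synthase St3gal5 by 2.55 and Stard8 by 2.51. Tdo2 was higher by 2.51 (56.6 against 9.89 CPM, edgeR adjusted p = 0.00199), did not pass without replicate 3, and was at 88.2 CPM in the Epcam-low cells but at 10.6 CPM in the Epcam-positive cells.

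Among the lower genes, Hoxaas3, an antisense RNA of the HoxA cluster, was at 4.20 against 68.3 CPM (log2 fold change −4.10), and T (brachyury), which is needed for posterior mesoderm, at 6.81 against 52.4 CPM (−2.86). Cdx1, a posterior homeobox gene, was at 31.1 against 146 CPM (−2.37), and Fst (follistatin), a secreted inhibitor of activin and BMP, at 17.5 against 112 CPM (−2.82). Ptn, a secreted growth factor, was at 20.9 against 101 CPM (−2.31), Rasgrp2 at 7.70 against 58.2 CPM (−2.78) and Mt1, a metallothionein, at 32.1 against 172 CPM (−2.39), a call that was lost without replicate 3. Apoa2 (−2.59, edgeR adjusted p = 0.0414) lost its call in 5 of the alternatives run and is uncertain.

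As the gate asked for Acta2 and Tagln among its genes, higher levels of other contractile genes were made likely by the choice of cells. Of 36 contractile and actin cytoskeleton genes tested, 31 were higher, none was lower, and 5 did not pass, with a median log2 fold change of 1.47. By kind, 8 of 30 of these with at least 10 CPM in either kind were at least 2-fold higher in the Epcam-positive cells and none in the Epcam-low cells. Among the 8 were Anxa2, Tagln2 and Tpm1 (2893 against 1013 CPM), and the filter favours the kind where a gene is high. The most abundant, Tpm1 (tropomyosin, which lies along actin filaments), was at 1789 ± 136 (SD, n = 3) against 401 CPM (2.10 ± 0.09, edgeR adjusted p = 8.83e-07). Cnn2, a calponin, was at 327, 425 and 367 CPM against 67.5 on average (2.42 ± 0.13, edgeR adjusted p = 1.17e-06). Csrp2 was at 1070 against 300 CPM, Cald1 (caldesmon) at 626 against 200 CPM and Vim (vimentin) at 553 against 195 CPM. Myl9, the regulatory myosin light chain of smooth muscle, was at 30.4, 72.8 and 62.7 CPM against 14.7 (1.89 ± 0.25, edgeR adjusted p = 0.000503), and its lowest value, in replicate 1, was still above all sums of the other cells. Vcl (vinculin), which ties actin to adhesions, was at 65.2 against 29.3 CPM (edgeR adjusted p = 9.19e-05). Des (desmin), of muscle intermediate filaments, was at 6.50 against 6.83 CPM and did not pass.

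The contractile genes were examined for the CArG box, since SRF is known to bind it in smooth-muscle promoters. Windows from 250 bases before to 50 bases after each annotated start (RefSeq sequences, GRCm38.p6) were searched on both strands for the CArG box in its strict form, 2 C, then 6 bases of A or T, then 2 G. It was present in 1.63% of all 32851 windows (1.81% of 27025 genes) and in 5 of the 32 contractile genes that had a window (15.6%). Acta1 also held a box before its start and is not shown, with 10 UMIs in the Epcam-positive and 1 UMI in the Epcam-low cells. The 3 below are shown because their genes were higher in the gated cells and the box lies before the start. Each is the plus strand, the box is in capitals, and the positions are Myl9 chr2:156775293-156775322, Cnn2 chr10:79988534-79988563 and Vcl chr14:20929161-20929190.
Myl9: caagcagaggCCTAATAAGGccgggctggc
Cnn2: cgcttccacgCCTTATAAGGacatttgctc
Vcl: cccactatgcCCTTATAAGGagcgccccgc
The Cnn2 and Vcl genes held the same 10 letters. Of the gate genes, Acta2, Ahnak and Bmp4 had a window each without the box in this strict form, and Hand1 and Tagln were not searched. Boxes that depart from the strict form were not searched for in any gene, so their absence is not shown. A match says only that these letters are present, and nothing on binding was measured. Srf itself was at 36.6 against 21.6 CPM (log2 fold change 0.71). Of 11 tested genes of SRF, its cofactors and their targets, 5 were higher, 1 was lower and 5 did not pass. Of 7 with at least 10 CPM in either kind, 4 were at least 2-fold higher in the Epcam-positive cells. That filter favours the kind where a gene is high, so this count is a description only. Myocd, the cofactor that is restricted to cardiac and smooth muscle, had 1 UMI in all gated cells.

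Extracellular matrix genes were higher in 16 of 44 cases and lower in none, with a median of 0.48. Serpinh1, the collagen chaperone, was at 679 against 288 CPM (1.19) and Sparc at 378 against 177 CPM (1.04). Col1a1 was at 32.3, 36.4 and 46.4 CPM against 5.20 on average (2.86 ± 0.26, edgeR adjusted p = 3.7e-05), with groups well apart. Thbs1 (thrombospondin 1, an adhesive matrix protein) was at 17.2 against 0.944 CPM (4.11), with 39.8 CPM in the Epcam-positive and 1.22 CPM in the Epcam-low cells, and the laminin chain Lama4 at 31.5 against 5.62 CPM (2.46). Tnc (tenascin C) had no UMI, which allows up to 3 UMIs in the 4126052 counted.

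Among the BMP genes, Bmp5 was at 18.8 against 8.23 CPM (log2 fold change 1.21 ± 0.24, edgeR adjusted p = 0.00575) and Gdf6 at 6.18 against 0.724 CPM (3.13), the 2 of 5 further ligands that were higher. Bmp2 (28.9 against 19.6 CPM, edgeR adjusted p = 0.126) and Bmp7 (20.6 against 16.4 CPM, edgeR adjusted p = 0.306) did not pass. Receptors and SMAD transducers moved little. Of 10, Bmpr2 was higher (0.56), 2 were lower, Acvr2b (−0.42) and Bmpr1b, which had no UMI in the gated cells, and Bmpr1a (62.2 against 50.3 CPM) did not pass. Of 11 antagonists and feedback inhibitors, 3 were higher, namely Bambi (125 against 42.4 CPM, 1.48), a receptor without kinase activity, and the inhibitory Smad7 (86.7 against 31.4 CPM, 1.42) and Smad6 (21.2 against 9.62 CPM, 1.07). The 2 lower ones were Fst, given above, and Grem1, which had no UMI. Of 10 response genes, 3 were higher and 1 lower. Msx2 was at 72.3 against 21.6 CPM (1.68), Msx1 at 206 against 108 CPM (0.88) and Id4 at 15.9 against 3.37 CPM (2.13), and Gata2 was lower at 2.08 against 6.90 CPM (−1.72). Id3 (371 against 390 CPM), the most abundant, and Id1 (log2 fold change 0.07) did not pass. For Id1 the kinds of gated cells lay on either side of the rest of the embryo, as given above, and so did those for Id4 (36.5 CPM in the Epcam-positive and 1.17 CPM in the Epcam-low cells, the latter from 3 UMIs).

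Wnt pathway genes were higher in 7 and lower in 10 of 31 tested. Beside Wnt4 and Wnt6, the ligand Wnt3 was higher at 9.68 against 2.12 CPM (2.12) and Wnt5a at 55.3 against 37.9 CPM (0.49). The secreted inhibitor Dkk1 was higher (36.2 against 19.5 CPM, 0.81) while Sfrp1 was lower (16.2 against 65.3 CPM, −2.14), as was the potentiator Rspo3 (55.6 against 116 CPM, −1.12). Dkk1 was at 74.2 CPM in the Epcam-positive but 9.26 CPM in the Epcam-low cells, below all other cells, and Wnt5a at 15.1 and 83.5 CPM, so that each was higher in 1 kind and lower in the other. Retinoid genes were higher in 1 and lower in 6 of 15. The receptor Rarg was the higher 1 (41.5 against 19.7 CPM, 0.98), and the retinoic acid synthase Aldh1a2 (56.2 against 112 CPM, −1.12) and the binding protein Crabp2 (24.3 against 93.1 CPM, −2.02) were among the lower.

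Transcription factors of lateral and extraembryonic mesoderm were higher in 10 and lower in 16 of 39 tested. Foxf1 was at 99.4 against 29.2 CPM (1.72 ± 0.11, edgeR adjusted p = 3.49e-06), Pitx1 at 98.3 against 23.6 CPM (2.01), Gata3 at 29.9 against 7.68 CPM (1.90) and Tbx20 at 45.5 against 13.4 CPM (1.71). Meis2, the most abundant of the list, was at 303 against 181 CPM (0.69). Gata4, which is needed for heart and gut, was at 3.39 against 15.4 CPM (−2.14), and Twist1 at 47.3 against 64.7 CPM (−0.50). By kind, Meis2 was at 528 CPM in the Epcam-positive and 145 CPM in the Epcam-low cells, and in every embryo the former were above and the latter below all other cells. Gata3 was at 60.1 and 9.04 CPM in the same order. For Twist1, by the levels given earlier, the mean of the Epcam-low cells was above that of all other cells and the mean of the Epcam-positive cells was below it. Foxf1 and Pitx1 were above all other cells in the Epcam-low cells of every embryo, and in the Epcam-positive cells their means (22.3 and 16.5 CPM) were near those of all other cells. Hox genes of groups 6 to 13 were higher in 2 (Hoxc8, 38.2 against 10.0 CPM, and Hoxb6, with a log2 fold change of 1.38) and lower in 1 (Hoxb9, 7.68 against 17.0 CPM) of 18, and the higher levels of Hoxc8 and Hoxb6 were in the Epcam-low cells (58.1 and 54.6 CPM), with 9.83 and 6.72 CPM in the Epcam-positive cells. Of 16 entries for Hox groups 1 to 5 (15 genes, with Hoxd4 under 2 identifiers), 6 were lower and none was higher.

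Imprinted genes, many of which act on growth of the embryo and placenta, were higher in 14 of 23 and lower in none, with a median of 0.72. Dlk1 was at 307 against 74.7 CPM (1.99), Mest at 1031 against 264 CPM (1.91), Igf2 at 14.4 against 4.82 CPM (1.56) and Meg3 at 1241 against 510 CPM (1.23). Phlda2, which restrains placental growth and was the most abundant, was at 1255 against 651 CPM (0.89) and H19 at 875 against 485 CPM (0.80). No imprinted gene of at least 10 CPM differed by 2-fold between the Epcam-positive and the Epcam-low cells.

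Epithelial genes split, with 7 higher and 5 lower of 18. The higher ones were led by Krt8 (1451 ± 85.4 against 344 CPM, 2.03) and Krt18 (1321 against 375 CPM, 1.77), with Krt19 (1.80), Cdh3 (P-cadherin, 2.42) and the desmosomal Dsp (152 against 49.2 CPM, 1.57). The lower ones included Cdh1 (20.3 against 37.3 CPM, −1.01, edgeR adjusted p = 0.0255) and Cldn6 (20.5 against 65.6 CPM, −1.73). Epcam itself was at 161, 120 and 112 CPM against 150 (log2 fold change −0.27, edgeR adjusted p = 0.167). Of 20 mesenchymal genes, 9 were higher, 3 lower and 8 did not pass, with the integrin Itga4 (24.4 against 3.51 CPM, 2.78) among the higher. Vascular and haematopoietic support factors were higher in 5 and lower in 1 of 30, with Igf2 and Vegfa (30.7 against 17.9 CPM, 0.77) among the higher, the latter at 17.5 CPM in the Epcam-positive and 39.6 CPM in the Epcam-low cells. Of 29 proliferation genes, 2 were higher, with Ccnd3 (235 against 107 CPM, 1.08), 2 were lower and 25 did not pass, among them Mki67 (211 against 177 CPM).

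**Figure D3:**
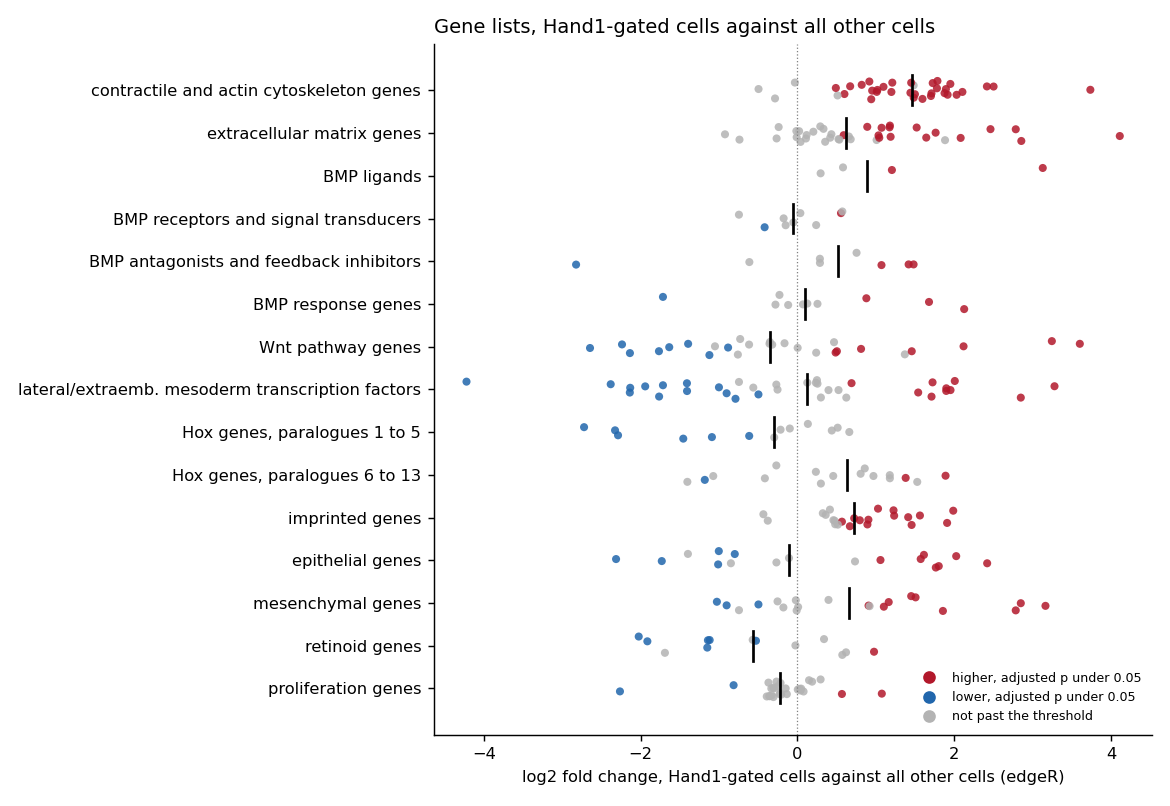
Log2 fold changes of the genes in each list, Hand1-gated cells against all other cells, 1 point per gene, red (higher) or blue (lower) where edgeR's adjusted p was under 0.05. Genes with up to 3 UMIs in the gated cells are left out, and the line is the median of the genes shown. Most contractile and imprinted genes lie to the right of 0, and lateral mesoderm factors lie on both sides.

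Markers of other cell types were measured in the gated cells as a whole, and their part in the results was not tested. Surface and amniotic ectoderm markers summed to 357, 325 and 239 CPM, against 243 in all other cells and 615 in surface-ectoderm-like cells. Of these 8 genes, 6 had a UMI and Wnt6 was the most abundant. Of the 7 tested, 2 were higher, 1 was lower and 4 did not pass, with a median log2 fold change of −0.27. Extraembryonic endoderm markers, all 13 of which had UMIs, summed to 315, 1612 and 1628 CPM, with Apoe the most abundant, against 28166 in their own class and 4074 in all other cells, and 8 of the 13 were lower. The low value in replicate 1 went with a smaller share of endoderm-like cells in that library, 6.10% against 17.0% and 13.8%.

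Cardiomyocyte markers summed to 65.7, 73.6 and 64.3 CPM against 1167 in cardiomyocytes, with Actn2 at 0. Endothelial markers summed to 72.5, 78.1 and 101 CPM against 1481, with Emcn at 0 and Egfl7 the most abundant. Erythroid markers were at 25.5, 44.8 and 25.2 CPM against 13272 in erythroid-like cells, with Hbb-y at 0 and Car2 the most abundant, and replicate 1 had no erythroid-like cell. Neural markers summed to 248, 172 and 186 CPM against 959 in neural-like cells, mostly Dnmt3b, and 9 of 9 were lower than in all other cells. Paraxial mesoderm markers summed to 105, 30.3 and 43.1 CPM against 863, and 8 of 9 were lower. Trophoblast markers summed to 154, 113 and 161 CPM, mostly Cdx2, with Prl3d1 and Tpbpa at 0 and none of 6 past the test. Germ cell markers summed to 36.3, 22.8 and 38.0 CPM, with Kit the most abundant, and 3 of 7 were lower. Allantois markers other than Tbx4 summed to 386, 355 and 392 CPM against 947 in allantois cells, with Spin2c the most abundant, and 2 of 5 were higher than in all other cells.

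Free RNA gives UMIs in cells that do not make a transcript, so shares of cells were set against neural-like cells (Sox2 and Pou3f1), at a median of 29388 UMIs. Wnt6 was found in 35.3% of the gated and 13.5% of the neural-like cells, and after thinning every cell to 5000 UMIs in 25.2% and 2.99%. Foxf1 was found in 66.1% and 20.9% (thinned, 35.8% and 5.14%), and Col1a1 in 39.3% and 5.75% (thinned, 19.7% and 0.709%). Thinning left out 6 gated cells and 1 neural-like cell. All 3 shares in the gated cells were above the neural-like background at equal depth.

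Hand1 and Bmp4 were about as high in 691 allantois cells, which had Tbx4 and at least 1 of Hoxa10, Hoxa11 and Pitx1 (126, 257 and 308 cells). Set against these, the gated cells were higher in contractile and epithelial genes and lower in the 5′ Hox genes. Of 9530 genes tested, 821 were higher (8.61%) and 377 lower (3.96%), and 1798 passed in all with the embryo as a block. Without replicate 2 the number was 646 and without replicate 3 it was 736. The median of all genes was at 0.00.

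All 15 tested Hox genes of groups 6 to 13 were lower in the gated cells, with a median log2 fold change of −2.15, and Hoxa10 and Hoxa11 are left out of this count because they chose the allantois cells. Since that choice asked for Tbx4 with Hoxa10, Hoxa11 or Pitx1, while the gate took out cells with Tbx4 or Cdx4, lower posterior Hox genes were made likely by the choice of cells. Hoxa9 was at 2.14 against 57.7 CPM (−4.53 ± 0.40, edgeR adjusted p = 2.16e-06), Hoxa7 at 3.57 against 79.3 CPM (−4.48), Hoxd9 at 24.6 against 118 CPM (−2.15) and Hoxb9 at 7.68 against 45.5 CPM (−2.52). Hoxc8 (38.2 against 103 CPM, −1.37) and Hoxb6 (34.9 against 86.6 CPM, −1.26), which stood above all other cells, were below the allantois. Hox genes encode position along the body axis, and groups with higher numbers act further to the tail. Of the 10 tested genes of groups 1 to 5, 4 were lower and none higher.

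**Figure D4:**
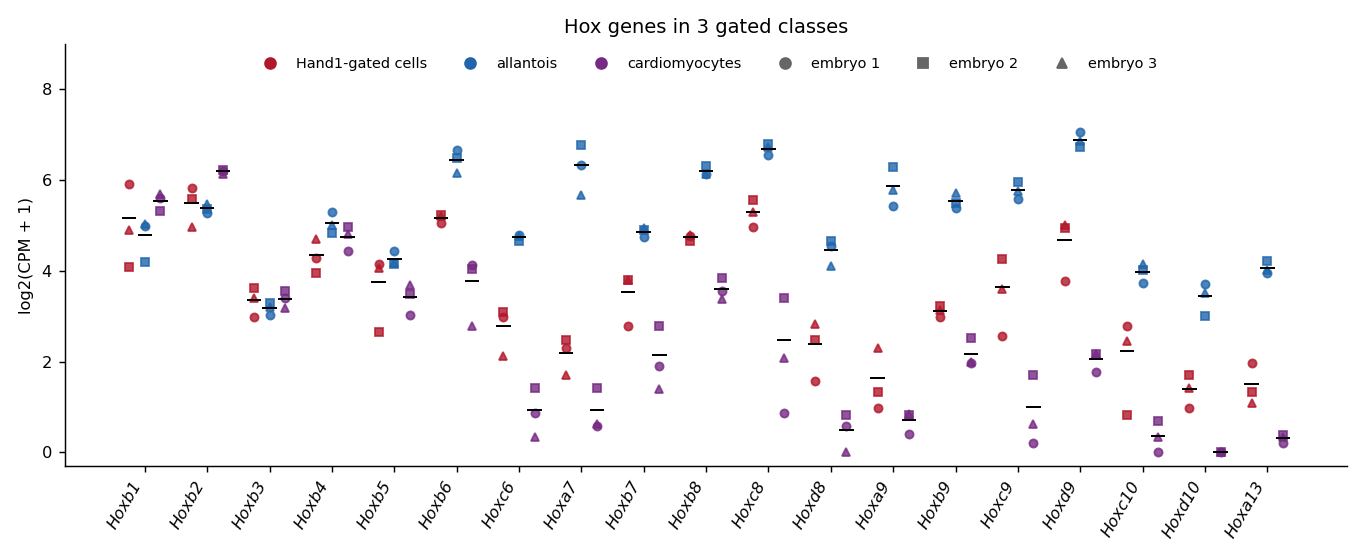
Levels of Hox genes, as log2(CPM + 1), in Hand1-gated cells, allantois cells and cardiomyocytes, with 1 point per embryo and a line at the mean CPM. The allantois points lie above the gated points for the genes of groups 6 to 13, with Hoxa7 and Hoxa9 the furthest apart.

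Other mesodermal regulators were lower as well, Isl1 at 9.66 against 72.8 CPM (−2.90), Tbx2 at 2.67 against 25.9 CPM (−3.23), Tbx3 at 48.1 against 142 CPM (−1.53), Twist1 at 47.3 against 157 CPM (−1.70), Snai1 at 14.9 against 62.2 CPM (−2.06) and Gata4 at 3.39 against 30.4 CPM (−3.02). Cdh2 (N-cadherin, 69.1 CPM in the allantois) was at a log2 fold change of −1.80 and Etv2, a factor of blood and vessel precursors, of −2.34. In the list of lateral mesoderm factors 13 of 32 were lower and 6 higher. Foxf1 (99.4 against 133 CPM, edgeR adjusted p = 0.148) did not pass, with 153 CPM in the Epcam-low and 22.3 CPM in the Epcam-positive cells. Neither did Tbx20 (edgeR adjusted p = 0.216), although its 51.0, 37.9 and 47.6 CPM lay below the 55.8, 54.7 and 59.4 CPM of the allantois cells in every embryo. That fit did not pair the embryos, and this contrast was not among the named ones checked with the embryo as a block.

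Higher than in the allantois were 28 of 31 contractile genes, with Des the only lower 1 (6.50 against 14.3 CPM), and a median of 1.00. The gate asked for at least 3 of Bmp4, Ahnak, Acta2 and Tagln, and the allantois rule for none of these. Higher contractile genes were thus made likely by the choice of cells. Tpm1 was higher by 1.86, Cnn2 by 2.05 and Myl9 by 2.36. Of 14 epithelial genes 11 were higher and none lower (median 1.39), with Krt8 at 1451 against 550 CPM and Epcam at 131 against 30.2 CPM (2.12, edgeR adjusted p = 3.1e-07). The Epcam level of the gated cells came almost wholly from the 67 cells that the division took by this gene. In the Epcam-low cells it was at 8.46 CPM, below the allantois level. Wnt6 was at 133 against 4.95 CPM (4.69 ± 0.30, edgeR adjusted p = 9.49e-08), Cryab was higher by 5.04, Lrp2 by 3.95, the VEGF receptor Flt1 by 3.48, Stmn2 by 3.45, Igfbp2 by 3.38 and Wnt4 by 3.28. Tdo2 was at 56.6 against 3.75 CPM. Of these, Tdo2 alone was higher in the Epcam-low than in the Epcam-positive cells, and the other genes were lower.

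Matrix genes were higher in 12 of 32, including Thbs1 (17.2 against 0.472 CPM) and Hapln1 (37.1 against 7.29 CPM, 2.37), while Col1a1 was level in the pooled cells (38.4 against 39.6 CPM, 0.01), with 51.5 CPM in the Epcam-low and 19.2 CPM in the Epcam-positive cells. Signals differed both ways. The chemokine Cxcl12 was at 33.3 against 6.03 CPM (2.46), with 71.4 CPM in the Epcam-positive and 6.41 CPM in the Epcam-low cells, and Bmp5 was higher by 1.21, while Wnt5a (55.3 against 141 CPM, −1.33), Kitl (39.4 against 97.6 CPM, −1.30), Vegfa (30.7 against 52.8 CPM, −0.69) and Bmp7 (20.6 against 35.4 CPM, −0.72) were lower. None of 9 BMP receptor genes and none of 7 antagonists passed. Of 9 BMP response genes 1 was higher and 3 lower, of 22 Wnt genes 5 and 7, of 12 retinoid genes 2 and 1, of 18 mesenchymal genes 6 and 3, and of 17 support factors 2 and 4. Imprinted genes were higher in 6 and lower in 4 of 22, the lower including Phlda2 (1255 against 2250 CPM, −0.81) and Cdkn1c (323 against 572 CPM, −0.80), a brake on the cell cycle. SRF genes were higher in 5 of 7, and of 29 proliferation genes 1 was higher and 1 lower. None of the 13 extraembryonic endoderm markers passed in this comparison.

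The 699 cardiomyocytes (193, 340 and 166 cells, at least 2 UMIs each of Tnnt2 and Myl7) shared the smooth-muscle genes of the gate. Of 9804 genes tested against these, 613 were higher in the gated cells (6.25%) and 417 lower (4.25%). With the embryo as a block 1755 passed in all, and with replicate 1, 2 or 3 left out 609, 529 or 443 did. All 9 tested sarcomere and cardiac markers were lower, which the exclusion of Tnnt2 and Myl7 made likely. Myl4 was at 2.46 against 212 CPM, Mef2c at 3.65 against 350 CPM (14 UMIs in the gated cells) and the RNA-binding protein Rbm24 at 2.23 against 157 CPM. Ttn and Myocd had 1 UMI each, Nkx2-5 had 2, and Sfrp5 and Ccdc141 had 3 each, where cardiomyocytes had 96.4, 62.4, 63.5, 92.9 and 67.8 CPM.

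Of 33 contractile genes outside the gate, 18 were still higher in the gated cells than in cardiomyocytes, 2 were lower and 13 did not pass, with a median of 0.45. The gate asked for smooth-muscle genes and the cardiomyocyte rule did not, which made higher levels likely here too. Tpm1 was at 1789 against 1062 CPM (0.71) and Cnn2 at 373 against 206 CPM (0.83). Myl9 was level at 55.3 against 50.3 CPM (0.12, edgeR adjusted p = 0.893), and Des was lower (6.50 against 16.7 CPM, −1.31). For Tpm1 the Epcam-low cells, at 1013 CPM, were near the cardiomyocytes.

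**Figure D5:**
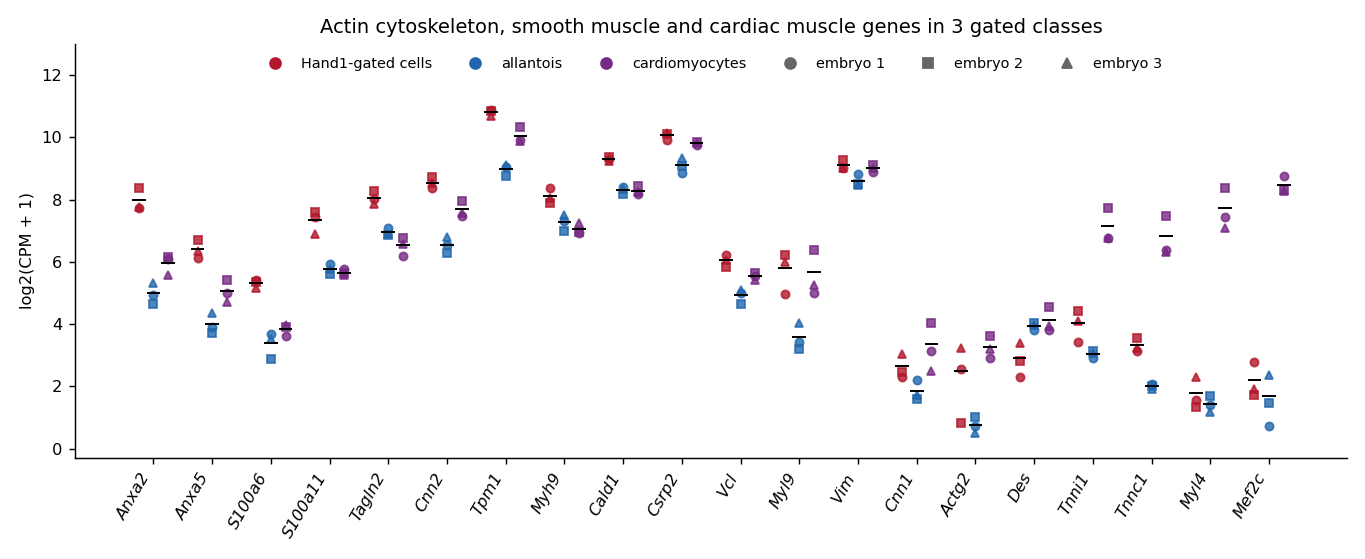
Levels of contractile and cardiac genes, as log2(CPM + 1), in Hand1-gated cells, allantois cells and cardiomyocytes, with 1 point per embryo and a line at the mean CPM. Gated cells and cardiomyocytes overlap for Myl9, and of these 3 classes cardiomyocytes alone are high for Myl4 and Mef2c.

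Hox genes of groups 6 to 13 went the other way from the comparison with the allantois, 7 of 8 being higher in the gated cells (median 2.19), with Hoxc8 at 38.2 against 4.53 CPM (2.98) and Hoxb6 at 34.9 against 12.7 CPM (1.37). Of 7 in groups 1 to 5, 1 was lower. Pitx1 was at 98.3 against 16.7 CPM (2.50), Cdx2, a posterior homeobox gene, at 136 against 27.2 CPM (2.29) and Gata3 at 29.9 against 5.81 CPM (2.26). Wnt6 was higher by 4.19, Wnt4 by 4.03, Flt1 by 2.93, Stmn2 by 2.82, Slc2a3 by 2.26 and Lrp2 by 2.22. Lower were Tbx20 (45.5 against 75.3 CPM, −0.77), Twist1 (−1.06), Gata4 (−3.83), Bmp5 (18.8 against 47.3 CPM, −1.29) and Bmp2 (28.9 against 68.0 CPM, −1.18). Pitx1 was at 155 CPM in the Epcam-low and 16.5 CPM in the Epcam-positive cells. Wnt6, Wnt4, Flt1, Stmn2, Slc2a3 and Lrp2 went the other way, each being higher in the Epcam-positive cells. By the level given earlier, Lrp2 in the Epcam-low cells was near the cardiomyocyte mean of 37.5 CPM. By list, 8 of 33 lateral mesoderm factors were higher and 12 lower, 11 of 14 epithelial genes were higher, 11 of 34 matrix genes were higher and 7 lower, and 10 of 24 Wnt genes were higher and 5 lower. Of 18 mesenchymal genes 4 were higher and 3 lower, of 22 imprinted genes 6 and 2, of 19 support factors 3 and 4, of 13 retinoid genes 2 and 1, of 10 SRF genes 2 and 1, and of 29 proliferation genes 1 and 3. Among the BMP genes, 2 of 4 ligands were lower, 1 of 8 receptors was lower, 1 of 8 antagonists was higher and 2 lower, and 3 of 7 response genes were higher and 1 lower.

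The gated cells were also divided by Tbx20 (chr9:24718138-24774303, minus strand), a T-box factor of extraembryonic and cardiac mesoderm that the gate did not use. A Tbx20 UMI was present in 117 cells and absent from 107, at median depths of 16630 and 13705 UMIs. Of 6713 genes tested between these, none was higher (0.0%) and 1 was lower (0.0149%). The gene was Epcam, at 96.6, 79.0 and 60.7 CPM with Tbx20 and 297, 162 and 165 CPM without (−1.39 ± 0.22, edgeR adjusted p = 0.0202), and the embryos did not overlap. Without replicate 2 or without replicate 3 no gene passed, with Epcam at −1.53 and −1.38, and 3 did without replicate 1. With cells thinned to 5000 UMIs before summing Epcam was at −0.86 and did not pass. Nor did it with the gate on thinned cells (−0.48), with the excluded genes allowed 1 UMI (−0.82) or with all 4 gate genes (−1.18). At an unadjusted p of 0.05, 367 of the 6713 genes passed, close to the share that this threshold lets pass with no difference. With the embryo as a block 8 genes were higher and 24 lower at the adjusted threshold. DESeq2 called 1 gene, with 151 at an unadjusted p of 0.05. Foxf1 was found in 76.1% of the cells with and 55.1% of those without Tbx20, and Wnt6 in 24.8% and 46.7%.

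Over 29 sums per embryo and class of cells, the genes whose levels (log2 of CPM + 1) went most closely with Hand1 were Bmp4 (Pearson r = 0.979), Spin2c (0.974), Gjb5 (0.962), Lypd6 (0.961) and Svep1 (0.960). These are descriptions across classes that share embryos, and Hand1 and Bmp4 were part of the gate. Spin2c, an allantois marker, was at 266 CPM in the gated cells, 540 in allantois cells, 145 in cardiomyocytes and 72.2 in all other cells.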

How the data were processed

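The deposited counts were UMIs per gene and barcode, made by the authors with Cell Ranger 3.1.0 on mm10 with EGFP added, as the submitters' processing notes and methods give it, and were checked to be whole numbers. Filters on barcodes followed the study's methods (1500 to 8500 genes, at most 7500 in replicate 2, and at most 10% mitochondrial UMIs). The study's further removal of clusters with low mitochondrial content or mixed markers was not done here, and doublets were not removed. Scrublet (scanpy 1.11.5) at its own threshold called 1, 2 and 2 cells and so did not work here, and leaving out the top 6% of its scores was an alternative.

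Cells were not treated as replicates. UMIs were summed per embryo and class and compared with edgeR 4.0.16 (R 4.3.3; glmQLFit and glmQLFTest, TMM, filterByExpr, Benjamini-Hochberg over all genes tested, threshold 0.05). The test was tried on simulated data. Genes that chose a class were left out of its counts of calls, and genes with up to 3 UMIs in the gated cells are given as counts. The embryo was not a block in the reported fit. It links the sums by design, and the deviations of an embryo's sums from their class means correlated across genes, which are not independent replicates, by 0.141 to 0.240 against all other cells, 0.141 to 0.264 against allantois cells, 0.178 to 0.337 against cardiomyocytes and 0.209 to 0.285 for the Tbx20 division. Alternatives are in the closing part, with DESeq2 1.42.0 among them.

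Genes were named by a rule. Against all other cells these were the 12 highest and 8 lowest log2 fold changes among genes past the threshold whose embryos did not overlap and whose mean was at least 50 CPM in the higher class, against allantois cells and cardiomyocytes the 8 each way, and for the Tbx20 division the 6 each way at 20 CPM. From each list the most abundant gene and up to 3 past the threshold each way were eligible, and Tbx20 was the first of 4 candidates with a UMI in 30% to 70% of the gated cells of every embryo. Genes beyond the rule, the cells just outside the gate by gene, the Epcam division and its genes were chosen after values were seen. The members and lists were chosen with earlier results of these data known. Gene coordinates are from GENCODE M21 (GRCm38). A few genes are not reported here.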

Additional observations from a re-analysis of the deposited data

How the results depend on the processing

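The 53 named genes and contrasts gave 795 values over the alternatives, of which 782 kept their direction and side of the threshold, 13 no longer passed and none reversed. The 13 were Epcam in the Tbx20 division (6), Apoa2 (5), and Tdo2 and Mt1 without replicate 3. Counts of genes moved more. With cells thinned to 5000 UMIs before summing, 1011, 453, 508 and 0 genes passed against all other cells, allantois cells, cardiomyocytes and in the Tbx20 division, in place of 2216, 1198, 1030 and 1. With the embryo as a replicate block 3844, 1798, 1755 and 32 passed, and this pairing changed the call of none of the 53. Leaving out 1 embryo gave 697 to 1831, 646 to 867, 443 to 609 and 0 to 3. The Tbx20 division also gave 0 genes with all 4 gate genes, 5 with at least 2, 0 with the gate on thinned cells, 19 with no filter on low counts, 16 without the top doublet scores, and 0 with the excluded genes allowed 1 UMI, an alternative chosen after seeing the data. The share of gated cells was 0.549% with all 4 genes, 1.86% with 2 and 2.47% with the excluded genes allowed 1 UMI. With 40 gated cells in replicate 1, the precision for genes of a few CPM is low, and a difference that did not pass may be beyond this depth.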
